A study of Rattus norvegicus with 12 samples.

Results

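The genes described here are 10 markers of smooth muscle and of myofibroblasts, the contractile matrix-producing cells of fibrotic tissue: Acta2, Actg2, Myh11, Tagln, Cnn1, Des, Myl9, Lmod1, Smtn and Mylk. They were taken by symbol, and each has 1 entry in both deposited tables, among 22132 entries for the control and adenine kidneys and 32623 for the sham and UUO kidneys. Acta2 and Actg2 were chosen by their larger rise in UUO than in adenine kidneys, so their values are given as a description with no test, and tests were kept to the other 8.

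RNA was sequenced from the kidneys of 12 wild-type male Sprague-Dawley rats, bought at 8 weeks of age, in 4 groups of 3 animals. The adenine group was gavaged over 3 weeks with a daily dose of 220 mg/kg adenine, a purine whose oxidised product forms crystals in the tubules, and the control group received saline. The UUO group had the left ureter tied for 2 weeks (unilateral ureteral obstruction), and the sham group had surgery without the tie. Values are FPKM, fragments scaled to transcript length and to the mapped fragments of the library, so they can be compared between genes per length, but the number of reads is unknown and no counting error could be given. The 2 tables were made separately, and each model was fitted within its own table.

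Smooth muscle cells shorten when calcium and calmodulin switch on myosin light chain kinase, which phosphorylates the light chain of smooth muscle myosin and lets it pull on actin. In a healthy kidney these proteins sit mainly in the walls of arteries and arterioles, in mesangial cells and pericytes, and in the muscle of the pelvis and ureter. In fibrosis, interstitial fibroblasts and pericytes can take up part of the same programme and are then called myofibroblasts, for which alpha smooth muscle actin, the product of Acta2, is the usual stain. Many of these genes are controlled by serum response factor, which binds a short element named the CArG box, together with its partner myocardin or myocardin-related factors. In tissue RNA, more cells of a type and more RNA per cell cannot be told apart.

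The stretch before the start of a gene is where such elements are best known, and Acta2 was the member that held near matches to them. RefSeq windows of 250 bases before the start (assembly GRCr8) were at hand for 6 of the 10 genes, namely Acta2, Actg2, Cnn1, Des, Smtn and Mylk. The Acta2 and Actg2 windows are shown because these actins were picked together and differ in this feature. The Acta2 window lies at chr1:241172504-241172753 on the minus strand, and that of Actg2 at chr4:117594040-117594289 on the minus strand. Capitals mark CArG boxes allowing at most 1 base other than A or T among the middle 6, searched on both strands.
Acta2: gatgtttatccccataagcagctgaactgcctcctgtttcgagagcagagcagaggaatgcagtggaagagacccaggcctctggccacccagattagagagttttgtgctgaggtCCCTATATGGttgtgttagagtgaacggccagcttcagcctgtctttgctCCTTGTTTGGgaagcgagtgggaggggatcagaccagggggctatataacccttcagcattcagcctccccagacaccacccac
Actg2: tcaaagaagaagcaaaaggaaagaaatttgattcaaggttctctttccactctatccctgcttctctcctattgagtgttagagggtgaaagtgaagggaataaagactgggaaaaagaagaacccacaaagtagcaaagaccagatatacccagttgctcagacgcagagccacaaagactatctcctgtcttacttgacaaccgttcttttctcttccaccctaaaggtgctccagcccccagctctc
In Acta2 the boxes began at bases -134 and -84 from the start of the gene. Of 33469 rat windows of this length, 8.08% held at least 1 such box, 0.693% held 2 or more, and 1.5% held a CArG box with A or T at all 6 middle bases. None of the 6 members, Acta2 included, held a CArG box with A or T at all 6 middle bases in this window. Both Acta2 boxes had 1 other base there, and no other member held that form. The letters CATTCC, a second element of muscle genes, were found on either strand in Acta2 and Mylk and in 12.1% of all windows. These are matches of letters and not measured binding sites.

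The sums of FPKM over all entries were 564972 to 582725 in control, 468389 to 487770 in adenine, 619664 to 630244 in sham and 528811 to 539011 in UUO kidneys, and the median log2 fold change over all tested entries was 0.30 in adenine (15029 entries) and 0.62 in UUO (15043 entries). Scaling by medians of ratios moved these medians to 0.014 and 0.032, so changes are also given relative to the median. All shares of all entries given below are from unscaled values. Counts under other scalings have no such share and should not be set against these. The 10 kidney epithelium markers were at or above 0.5 FPKM in each of the 12 samples.

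The actins came first in the choice of these genes. Acta2 was measured at 30.6, 15.4 and 17.1 FPKM in the control kidneys and at 45.2, 39.2 and 33.6 FPKM in the adenine kidneys. It stood at 14.7, 22.9 and 35.4 FPKM in the sham kidneys and at 179, 472 and 133 FPKM in the UUO kidneys. Neither treated group overlapped its reference group, and every UUO kidney was above every adenine kidney, a comparison across tables that were normalized separately. The log2 fold change on the log2(FPKM + 0.1) scale was 0.96 (SE 0.27) in adenine and 3.29 (SE 0.51) in UUO.

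Actg2 encodes gamma smooth muscle actin, the actin typical of gut and urinary tract muscle. Its level was 1.74, 1.77 and 0.672 FPKM in control and 1.16, 0.764 and 1.07 FPKM in adenine kidneys, which overlapped. In the sham kidneys it was 0.169, 0.579 and 2.04 FPKM, and in the UUO kidneys 25.2, 56.0 and 2.67 FPKM. The UUO range thus began just above the highest sham kidney, and UUO rat 3 was 21.0 times lower than UUO rat 2. The log2 fold change was -0.35 (SE 0.40) in adenine and 4.43 (SE 1.21) in UUO, and leaving out UUO rat 3 raised the latter to 5.68. Rat actin genes are closely related in sequence, so some reads may be shared between Acta2, Actg2 and the cytoplasmic actins. Levels of these genes are uncertain to that extent.

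**Figure D1:**
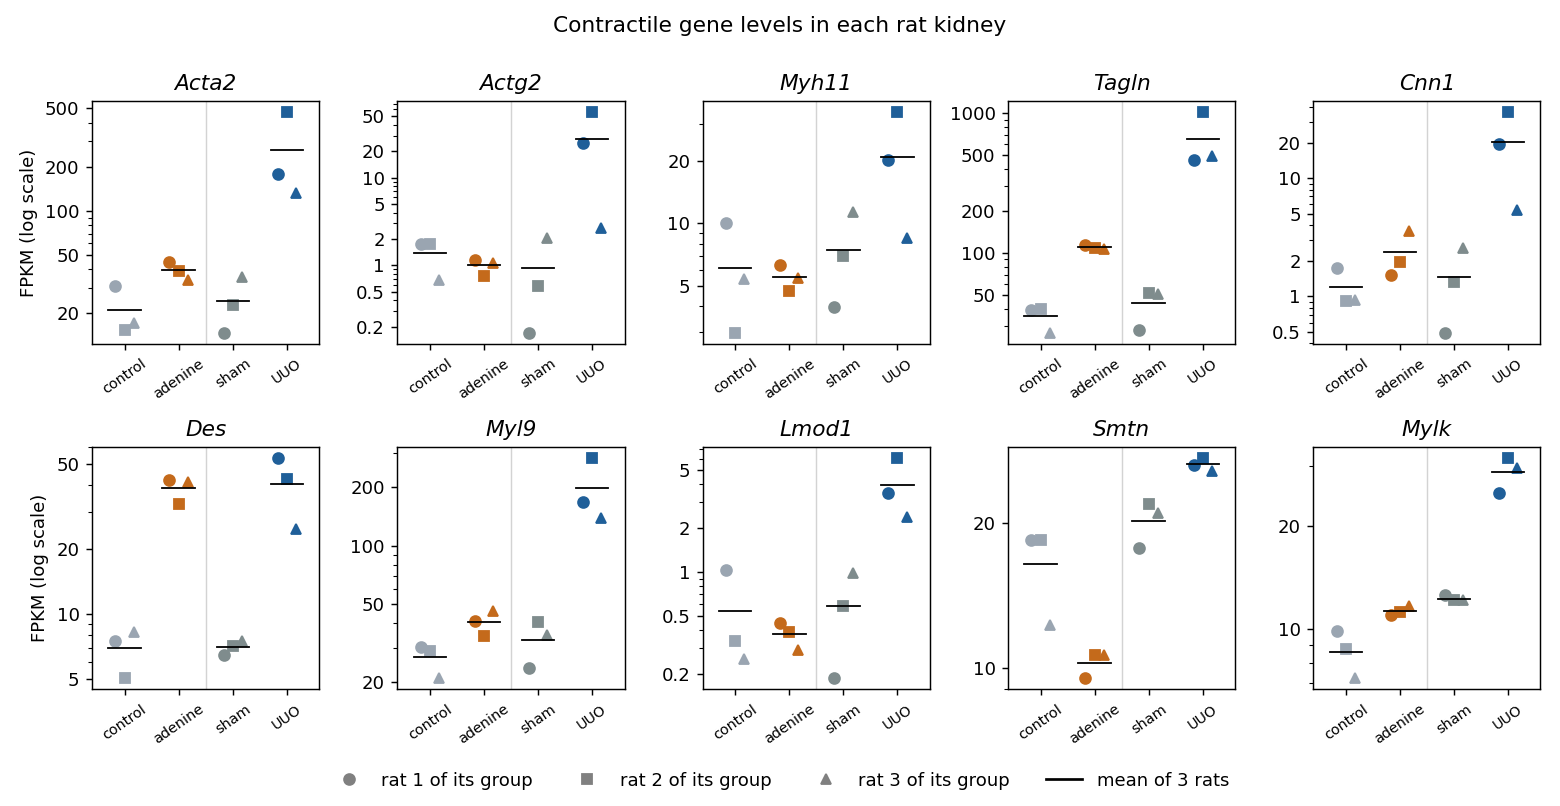
FPKM of the 10 contractile genes (log axis, own scale for each gene) in the 3 rats of each group, with 1 marker shape for each rat number and a line at the mean. All 3 UUO kidneys were above all 3 sham kidneys for every gene except Myh11, as they were for 60% of all tested entries. Acta2 and Actg2 were chosen by their larger rise in UUO. Smtn was lower in all 3 adenine kidneys than in all 3 control kidneys.

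Among the actin-binding proteins, Tagln (transgelin, also called SM22-alpha) was the most abundant of the 10 genes in each of the 4 groups. Its level was 39.1, 40.1 and 26.9 FPKM in control and 114, 109 and 107 FPKM in adenine kidneys. In sham kidneys it was 28.4, 52.0 and 50.8 FPKM and in UUO kidneys 462, 1019 and 493 FPKM. Tagln rose in both models, by a log2 fold change of 1.66 (SE 0.17, adjusted p = 0.000281) in adenine and 3.86 (SE 0.36, adjusted p = 0.000136) in UUO. Relative to the median of all genes these changes were 1.36 and 3.25.

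Cnn1 (calponin 1, a brake on myosin activity in differentiated smooth muscle) was low in the reference kidneys and rose in UUO. It was measured at 1.75, 0.911 and 0.938 FPKM in control and at 1.53, 1.94 and 3.61 FPKM in adenine kidneys, which overlapped (log2 fold change 0.89, SE 0.39, adjusted p = 0.0891). In sham kidneys it was 0.490, 1.33 and 2.58 FPKM and in UUO kidneys 19.3, 36.3 and 5.37 FPKM, a log2 fold change of 3.58 (SE 0.80, adjusted p = 0.00614). With no filter on low values, the adjusted p in UUO was 0.0503.

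Lmod1 (leiomodin 1, which starts new actin filaments in smooth muscle) was the least abundant of the 10. Its values were 1.03, 0.337 and 0.251 FPKM in control and 0.444, 0.389 and 0.293 FPKM in adenine kidneys. With fewer than 3 of these 6 samples at 0.5 FPKM it was not tested there, and an unfiltered fit gave a log2 fold change of -0.24 (SE 0.49, adjusted p = 0.713). In UUO kidneys it was 3.47, 6.09 and 2.37 FPKM against 0.186, 0.585 and 0.988 FPKM in sham kidneys, and it rose by a log2 fold change of 2.67 (SE 0.56, adjusted p = 0.00458).

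Smtn (smoothelin, a marker of contractile smooth muscle) was the one tested gene that fell in adenine kidneys. It stood at 18.5, 18.5 and 12.3 FPKM in control and at 9.49, 10.6 and 10.6 FPKM in adenine kidneys, without overlap (log2 fold change -0.65, SE 0.18, adjusted p = 0.0192). The call was lost when control rat 1, control rat 2 or adenine rat 1 was left out (adjusted p = 0.0602, 0.0571 and 0.0574). In UUO kidneys it was 26.5, 27.4 and 25.8 FPKM against 17.8, 22.0 and 21.1 FPKM in sham kidneys, a log2 fold change of 0.39 (SE 0.10, adjusted p = 0.0129). This was 0.22 below the median of all genes, and with median-of-ratios scaling the value was -0.21 (adjusted p = 0.173), so the direction of Smtn in UUO depended on the scaling.

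Myosin and its switch come next. Myh11, the heavy chain of smooth muscle myosin, was measured at 9.99, 2.98 and 5.41 FPKM in control and at 6.30, 4.75 and 5.45 FPKM in adenine kidneys, with a log2 fold change of 0.0033 (SE 0.41, adjusted p = 0.995). In UUO kidneys it was 20.1, 34.3 and 8.50 FPKM against 3.97, 6.96 and 11.3 FPKM in sham kidneys. The groups overlapped, because UUO rat 3 was below sham rat 3, and the log2 fold change of 1.40 (SE 0.57) did not pass the test (adjusted p = 0.0612). It passed without UUO rat 3 (1.93, adjusted p = 0.0136) and without sham rat 3 (1.76, adjusted p = 0.0413).

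Myl9, the regulatory light chain of smooth muscle myosin, was 30.4, 28.9 and 20.8 FPKM in control and 41.3, 34.2 and 46.2 FPKM in adenine kidneys. The adenine kidneys lay above the control kidneys (log2 fold change 0.61, SE 0.18, adjusted p = 0.0249), but with median-of-ratios scaling the value was 0.32 (adjusted p = 0.166), and the call was lost without control rat 3, adenine rat 1 or adenine rat 3 (adjusted p = 0.0573 to 0.0861). In UUO kidneys Myl9 was 169, 285 and 140 FPKM against 23.5, 40.6 and 34.8 FPKM in sham kidneys, a rise of 2.55 (SE 0.30, adjusted p = 0.00037) in log2 fold change.

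Mylk encodes myosin light chain kinase, the enzyme that switches the motor on. It was 9.89, 8.75 and 7.20 FPKM in control and 11.1, 11.3 and 11.7 FPKM in adenine kidneys (log2 fold change 0.40, SE 0.14, adjusted p = 0.0454). Relative to the median this was 0.11, and with median-of-ratios scaling the call was lost (adjusted p = 0.502), as it was without control rat 2, control rat 3 or any 1 adenine rat (adjusted p = 0.0761 to 0.122). In UUO kidneys Mylk was 25.0, 31.7 and 29.6 FPKM against 12.6, 12.2 and 12.1 FPKM in sham kidneys, and it rose by a log2 fold change of 1.21 (SE 0.11, adjusted p = 0.000117).

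Des encodes desmin, the intermediate filament of muscle cells, which in the kidney is also made by mesangial cells, pericytes and injured podocytes. It was 7.48, 5.03 and 8.30 FPKM in control and 42.0, 32.5 and 41.0 FPKM in adenine kidneys, and 6.49, 7.10 and 7.54 FPKM in sham and 53.4, 42.3 and 25.0 FPKM in UUO kidneys. Des rose in both models, by a log2 fold change of 2.48 (SE 0.21, adjusted p = 0.000152) in adenine and 2.43 (SE 0.27, adjusted p = 0.000251) in UUO. It was the member with the largest log2 fold change in adenine, where it ranked above 92.5% of all tested entries.

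**Figure D2:**
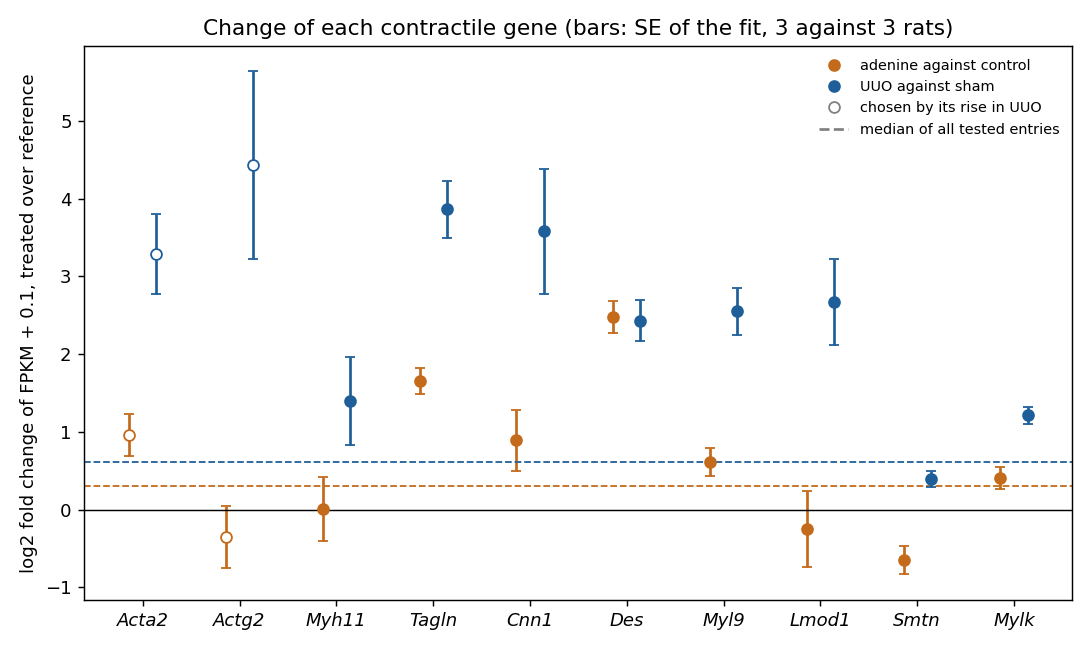
Log2 fold change on the log2(FPKM + 0.1) scale of each gene in adenine against control and in UUO against sham kidneys, with bars for the standard error of the limma fit (3 against 3 rats), open markers for the 2 genes chosen by their rise and dashed lines at the median of all tested entries (0.30 and 0.62). The UUO values lay above the adenine values for every gene except Des, for which they were 2.43 and 2.48.

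Counted together in adenine kidneys, 9 of the 10 genes passed the filter on low values, and 7 of the 8 genes not picked on their rise were tested. Of these 7, 1 (Des) was higher at an adjusted p under 0.05 and a log2 fold change of at least 2, against 10.7% of all tested entries. Without the fold threshold, 4 of 7 were higher (Tagln, Des, Myl9 and Mylk), against 39.6% of all entries, and 1 (Smtn) was lower, against 19.9%. All 3 adenine kidneys were above all 3 control kidneys for 4 of the 8, against 45% of tested entries. The shares that were higher were close to, or somewhat above, those of all entries, and the share that was lower was somewhat below. Without control rat 3, adenine rat 1 or adenine rat 3, 2 of the 7 were higher at the adjusted p. The median log2 fold change over the 8 genes not picked, with Lmod1 at its unfiltered value, was 0.51, beside 0.30 over all tested entries.

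In UUO kidneys all 10 passed the filter and the 8 not picked were tested. Of the 8, 5 were higher past both thresholds (Tagln, Cnn1, Des, Myl9 and Lmod1), against 13.2% of all tested entries. At the adjusted p alone 7 of 8 were higher, against 56.1%, and 0 were lower, against 14.4%; limma gave an unadjusted p under 0.05 to 8 genes upward and to 0 downward. For 7 of the 8 genes all UUO kidneys were above all sham kidneys, against 60% of entries. The median over the 8 genes not picked was 2.49, beside 0.62 over all tested entries. With median-of-ratios scaling or quantile normalization 3 of the 8 stayed past both thresholds.

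The size of the change was then compared between the models, as the difference of the log2 fold changes. The log2 fold change in UUO was above that in adenine for 5 of the 7 tested genes at an adjusted p under 0.05, against 21.7% of the 13486 genes tested in both tables. Tagln differed by 2.20 (SE 0.40, adjusted p = 0.00216) and Myl9 by 1.94 (SE 0.36, adjusted p = 0.00225). Smtn differed by 1.05 (SE 0.21, adjusted p = 0.00362) and Mylk by 0.81 (SE 0.18, adjusted p = 0.00637). Cnn1 had the widest error, with a difference of 2.69 (SE 0.89, adjusted p = 0.0390) that was lost without control rat 1, adenine rat 1 or 2, sham rat 1 or 2, or UUO rat 1 or 2 (adjusted p = 0.0593 to 0.103). The median difference over all genes was 0.28. With median-of-ratios scaling 3 of the 7 remained past the threshold, and Cnn1 (adjusted p = 0.0772) and Mylk (adjusted p = 0.0666) did not. For Smtn the difference joined a fall in adenine to a value near the median in UUO.

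For Des the difference was -0.047 (SE 0.34, adjusted p = 0.934), with a 95% interval of -0.78 to 0.68, so a gap of 1 log2 unit lay outside it. For Myh11 the difference of 1.39 (SE 0.70, adjusted p = 0.152) had an interval of -0.11 to 2.90, which leaves both no gap and a large gap within it. Acta2 and Actg2, chosen on this contrast, had differences of 2.33 (SE 0.58) and 4.78 (SE 1.27). By the same measure Tagln (2.20) stood just below Acta2, and Cnn1 (2.69) and Lmod1 (2.91) lay between both actins. The Lmod1 value came from fits with no filter, in which its adjusted p was 0.0293. Adenine and UUO also differed in time (3 and 2 weeks) and in route, which cannot be told apart from the injury itself.

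In the sham and UUO groups 1 rat tended to stand high or low for most of the members at once, whereas the adenine rats were split. Among controls, rat 1 was the highest for 6 of the 10 genes, against 36.7% of all tested entries. Control rat 3 was the lowest for 6 of 10, against 32.1%. In the UUO group rat 2 was the highest for 9 of the 10 genes (all except Des), while it was the highest for 28.2% of all tested entries. UUO rat 3 was the lowest for 8 of 10, against 28.9% of entries, and sham rat 1 was the lowest for 9 of 10 (all except Mylk), against 36.5%. Adenine rat 1 was the highest for 6 genes and the lowest for 3, and adenine rat 3 was the highest for 4 and the lowest for 3. Without Acta2 and Actg2, the summed FPKM of the other 8 genes was 779, 1482 and 729 in the UUO kidneys and 93.4 to 143 in sham kidneys, and it was 82.1 to 118 in control and 205 to 226 in adenine kidneys. The UUO kidneys spread further than the adenine kidneys.

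**Figure D3:**
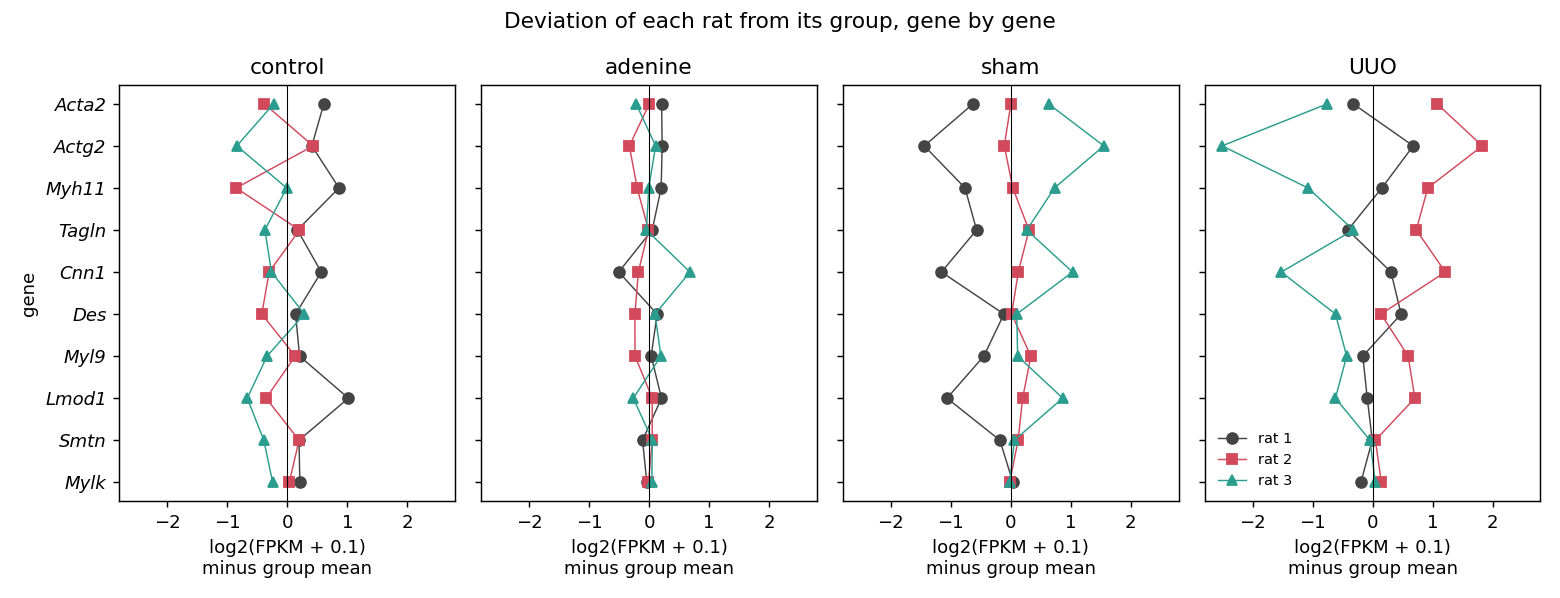
Deviation of each rat from the mean of its group on the log2(FPKM + 0.1) scale, gene by gene, in the 4 groups. In the UUO panel rat 2 lay to the right for 10 genes and was the highest for 9, with the widest spread at Actg2, whereas Smtn and Mylk lay close to the group mean in the sham and UUO panels.

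This spread was uneven over the genes. In UUO kidneys the highest rat exceeded the lowest by 21.0 times for Actg2, 6.76 times for Cnn1, 4.03 times for Myh11 and 3.56 times for Acta2, but by 1.27 times for Mylk and 1.07 times for Smtn. In sham kidneys the same ratio was 12.1 for Actg2, 5.32 for Lmod1, 5.27 for Cnn1, 2.86 for Myh11 and 2.40 for Acta2, but 1.16 for Des and 1.04 for Mylk. The median over all tested entries, with 0.1 added to each value, was 1.26 in UUO and 1.31 in sham kidneys. Actg2, Cnn1, Myh11, Acta2, Lmod1 (2.57 in UUO), Tagln (1.83 in sham and 2.20 in UUO) and Myl9 (1.73 and 2.04) were above these medians in both groups. Des (2.14) and Mylk were above the median in UUO and below it in sham kidneys, and Smtn was below it in both. In adenine kidneys the ratio stayed at 1.52 or below for 9 of the 10, with Cnn1 at 2.36.

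Within a group the order of levels was much the same in control, adenine and sham kidneys. Tagln, Myl9 and Acta2 led in that order in all 3, with overlapping ranges in control and sham kidneys, while in adenine kidneys Tagln was apart from Myl9. Des held the sixth place in control kidneys and the fourth in adenine kidneys, where its range (32.5 to 42.0 FPKM) overlapped that of Acta2. In UUO kidneys the order of the means was Tagln (658 FPKM), Acta2 (261 FPKM), Myl9 (198 FPKM), Des (40.2 FPKM), Mylk (28.8 FPKM), Actg2 (28.0 FPKM), Smtn (26.6 FPKM), Myh11 (21.0 FPKM), Cnn1 (20.3 FPKM) and Lmod1 (3.98 FPKM). Each range overlapped that of the next gene, except that Myl9 was apart from Des. In UUO rat 3 Acta2 (133 FPKM) was below Myl9 (140 FPKM), so their order did not hold in every rat.

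Most of these genes have a relative that other kidney cells also use, and the ratio of the 2 within a sample does not depend on the scaling of the sample. Tagln was 22.3% to 42.0% of its relative Tagln2 in control and 16.0% to 17.7% in adenine kidneys, and 22.0% to 32.1% in sham and 58.4% to 134% in UUO kidneys. On the log2 scale the ratio moved by -0.91 in adenine and by 1.54 in UUO, with no overlap in either model (two-sided exact permutation test, p = 0.1 in both, the smallest that 3 against 3 allows). Every adenine kidney had less Tagln per Tagln2 than every control kidney, and every UUO kidney had more than every sham kidney. Tagln2 itself rose, by a log2 fold change of 2.57 in adenine and 2.32 in UUO. In adenine the ratio thus fell while both genes rose.

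Myl9 over Myl12b, the light chain of non-muscle myosin, moved by -0.32 in adenine (exact p = 0.3) and by 1.04 in UUO (exact p = 0.1). Cnn1 over Cnn2 moved by -2.07 in adenine (exact p = 0.1) and by 0.45 in UUO (exact p = 0.8), where the groups overlapped and the sign turned without UUO rat 2 (-0.17) or with a pseudocount of 1 (-0.16). Des over vimentin (Vim), the filament of fibroblasts and many injured cells, moved by -1.45 in adenine and by -0.81 in UUO (exact p = 0.1 in both), and every treated kidney had less Des per Vim than every reference kidney. Acta2 was 3.32% to 7.30% of Actb in control, 2.31% to 2.82% in adenine, 2.83% to 6.15% in sham and 8.78% to 26.8% in UUO kidneys. Myh11 over Myh9 moved by -2.47 in adenine (exact p = 0.1), and it is not given for UUO because Myh9 was listed at the lowest value of the table in 3 of those 6 samples. In adenine kidneys these relatives rose themselves, by log2 fold changes of 2.96 (Cnn2), 3.93 (Vim), 2.47 (Myh9), 1.91 (Actb) and 0.93 (Myl12b). Vim also rose in UUO, by 3.24. A lower ratio is thus not by itself a fall of the member.

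**Figure D4:**
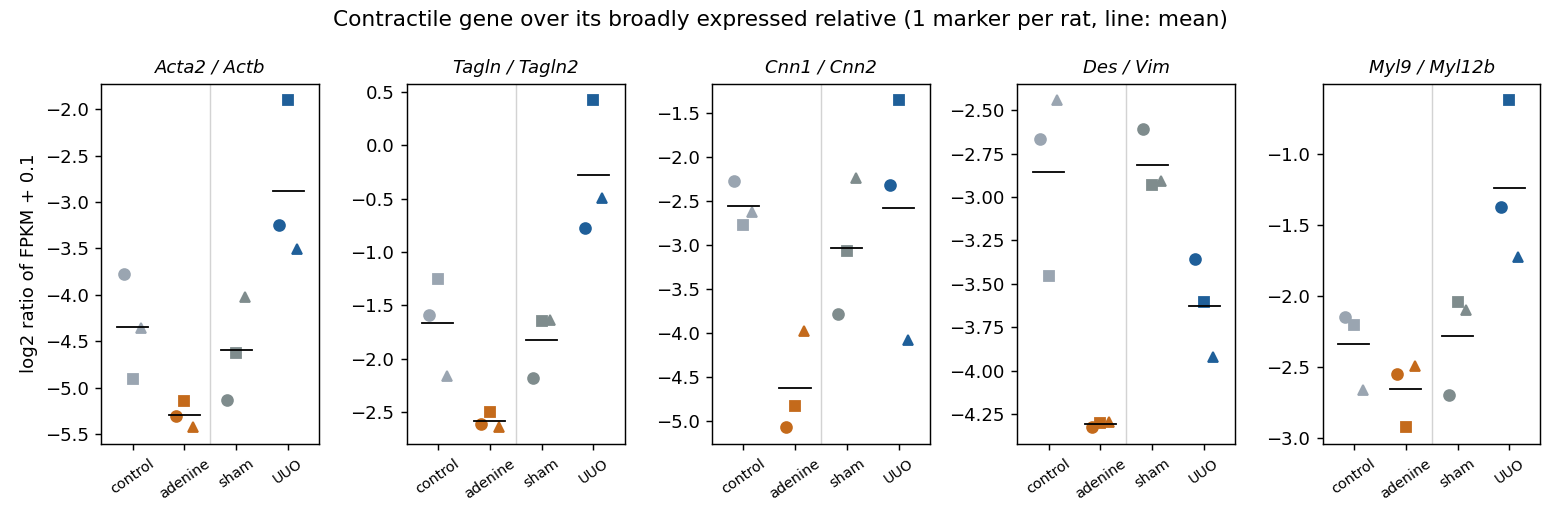
Log2 ratio of each contractile gene to its broadly expressed relative (FPKM + 0.1), 1 marker for each rat and a line at the group mean, with own axes. Tagln over Tagln2 was lower in all 3 adenine kidneys and higher in all 3 UUO kidneys than in their references, while Des over Vim was lower in both models. Tagln2 and Vim themselves rose in both models.

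Of 37 further smooth muscle cytoskeletal genes, 31 were tested in adenine kidneys and 35 in UUO kidneys. Of these, 1 in adenine and 2 in UUO were under 0.5 FPKM in all reference kidneys and were tested through the treated kidneys alone. In adenine 14 of 31 were higher and 4 lower at the adjusted p, against 39.6% and 19.9% of all entries. Past both thresholds 4 were higher, against 10.7% of all entries, and 1 (Csrp2) was lower. The median was 1.04, beside 0.30 over all entries. In UUO 24 of 35 were higher and 2 lower, against 56.1% and 14.4%. Past both thresholds 13 were higher, against 13.2% of all entries, and 0 were lower. With median-of-ratios scaling 7 were higher and 2 lower past both. The unscaled median was 1.42, beside 0.62 over all entries. Csrp2, a LIM protein of smooth muscle, fell in adenine (log2 fold change -2.32, adjusted p = 0.00164) and in UUO (-1.92, adjusted p = 0.000137). Tpm2 (beta tropomyosin, which covers the myosin sites of actin) rose in both, from 18.8, 18.4 and 10.7 to 45.9, 45.1 and 42.8 FPKM in adenine and from 10.7, 22.2 and 23.4 to 146, 273 and 109 FPKM in UUO kidneys. Flna (filamin A, an actin cross-linker) rose in adenine (log2 fold change 3.38) and in UUO (3.17), with a difference of -0.21 (SE 0.29, adjusted p = 0.63). Pdlim7, which links kinases to actin fibres, rose from 6.40, 7.42 and 6.73 to 65.7, 80.1 and 48.8 FPKM in UUO kidneys (log2 fold change 3.20, adjusted p = 2.46e-05). Itga5, the fibronectin receptor chain, rose by 3.20 in adenine (adjusted p = 6.42e-05) and by 2.70 in UUO (adjusted p = 0.000147).

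Nexn (nexilin, an actin-binding protein of muscle), chosen after its values were seen, moved in opposite directions. It was 3.33, 3.83 and 2.20 FPKM in control and 1.16, 1.09 and 1.50 FPKM in adenine kidneys (log2 fold change -1.23, adjusted p = 0.00631), but 0.783, 0.963 and 1.48 FPKM in sham and 4.34, 5.75 and 6.47 FPKM in UUO kidneys (2.28, adjusted p = 0.000379). The difference between the models was 3.52 (SE 0.38, adjusted p = 9.5e-05).

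Of 29 regulators of smooth muscle genes, 24 were tested in each model. At the adjusted p 14 were higher in adenine and 21 in UUO, against 39.6% and 56.1% of all entries. Their medians were 0.84 and 1.46, beside 0.30 and 0.62 over all entries. With median-of-ratios scaling 12 and 18 were higher and 1 was lower in each model, with medians of 0.55 and 0.87. Srf, serum response factor, was 7.61, 7.82 and 6.84 FPKM in control and 10.5, 9.59 and 9.70 FPKM in adenine kidneys, and 6.47, 7.29 and 7.28 FPKM in sham and 18.9, 18.1 and 14.5 FPKM in UUO kidneys. It rose by 1.27 in log2 fold change in UUO (adjusted p = 0.000207), while the adenine value of 0.42 (adjusted p = 0.019) was 0.12 with median-of-ratios scaling (adjusted p = 0.412). Fhl2, a cofactor that binds serum response factor, rose by 0.97 in adenine and 2.84 in UUO, a difference of 1.88 (SE 0.20, adjusted p = 9.5e-05). Gata6, a transcription factor of vascular smooth muscle, rose by 3.45 in adenine and by 3.66 in UUO. It was under 0.5 FPKM in all control and sham kidneys. In both models it thus entered the test and the counts above through the treated kidneys alone. Klf5, a zinc finger factor of growing smooth muscle, rose by 2.38 in adenine (adjusted p = 0.00726) and by 3.32 in UUO (adjusted p = 2.01e-05). Zeb2, a zinc finger repressor, rose by 2.87 in adenine (adjusted p = 0.000126) and by 1.38 in UUO (adjusted p = 0.000286), the difference being -1.49 (SE 0.28, adjusted p = 0.00244).

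Ccn2 (connective tissue growth factor), likewise chosen after its values were seen, had no called change in adenine, at 40.0, 68.5 and 42.9 FPKM in control and 25.4, 48.2 and 53.7 FPKM in adenine kidneys (log2 fold change -0.28, adjusted p = 0.493). In UUO kidneys it was 241, 242 and 240 FPKM against 32.0, 50.4 and 59.0 FPKM in sham kidneys (log2 fold change 2.40, adjusted p = 0.00011). Unlike Acta2 and Actg2, it hardly varied among the UUO rats. Myocd, myocardin itself, was at or under 0.256 FPKM in all 12 kidneys and below the filter, so it was not tested.

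The markers of the cells that could carry these genes moved too, and their part in the result was not tested. Of 13 tested interstitial fibroblast and matrix markers, 13 were higher in both models at the adjusted p, against 39.6% (adenine) and 56.1% (UUO) of all entries. In each model 3 of the 13 were under 0.5 FPKM in all 3 reference kidneys and so were tested through the treated group alone. The list's summed FPKM was 75.7 to 134 in control, 1115 to 1423 in adenine, 94.3 to 101 in sham and 1207 to 2835 in UUO kidneys. Pericyte and mural markers were higher for 6 of 11 in adenine and for 9 of 11 in UUO, against the same 39.6% and 56.1% of all entries. Their summed FPKM was 54.1 to 79.4 in control, 102 to 106 in adenine, 71.2 to 119 in sham and 178 to 413 in UUO kidneys. By rat, the UUO sums were 2835, 1798 and 1207 FPKM for fibroblast and 413, 274 and 178 FPKM for mural markers, so UUO rat 1 was the highest in both. Single fibroblast markers ordered the rats differently, with Col3a1 at 1022, 531 and 335 FPKM and Fn1 at 192, 240 and 131 FPKM.

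Urothelial markers of the pelvis and ureter had sums of 146, 73.4 and 145 FPKM against 0.647 to 2.76 FPKM in sham kidneys. Upk1b, a uroplakin of the urothelial surface, was 0.0265 to 0.271 FPKM in sham and 20.4 to 25.1 FPKM in UUO kidneys. The 6 urothelial markers tested in UUO were all called higher, but 5 of them were under 0.5 FPKM in all 3 sham kidneys and passed the filter through the UUO kidneys alone, so this count carries no weight. UUO rat 2 had the lowest urothelial sum of its group. Of the urothelial markers, 2 were tested in adenine and neither was called, with sums of 0.765 to 7.12 FPKM in control and 1.33 to 4.34 FPKM in adenine kidneys. Endothelial markers were higher for 2 and lower for 4 of 9 in adenine, against 39.6% and 19.9% of all entries. They were higher for 7 of 9 in UUO, against 56.1% of all entries. With median-of-ratios scaling, for which no share of all entries was computed, 4 of 9 endothelial markers were higher and 1 was lower in UUO. Macrophage markers were higher for 10 of 10 in both models, against 39.6% of all entries in adenine and 56.1% in UUO. Of these 10, 1 (Cd163) was under 0.5 FPKM in all reference kidneys and was tested through the treated kidneys alone. Kidney epithelium markers were lower for 5 of 10 in adenine and 7 of 10 in UUO (6 and 10 with median-of-ratios scaling). The shares of all entries that were lower, without that scaling, were 19.9% and 14.4%. Skeletal muscle markers summed to 3.69 to 11.2 FPKM over all kidneys, with at least 4 of 9 under 0.5 FPKM in each. Of 3 tested in UUO, 2 were higher (Tnni2, under 0.5 FPKM in all 3 sham kidneys, by 2.65 and Tnnt3 by 1.81), against 56.1% of all entries. Of 2 tested in adenine, Tnnt3 was higher and Mylpf lower, against 39.6% and 19.9% of all entries. The Tnnt3 call in adenine was lost with median-of-ratios scaling (adjusted p = 0.0664).

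Among 13477 other genes, those whose profile over the 12 samples was most like that of Acta2 were Tpm2, Olr1585, Aldh1a3, Gli1 and Amz1, with a root mean square difference of 0.40 to 0.50 log2 units from it. Tpm2 was also the highest in UUO rat 2. The profiles nearest to Actg2 were further away, at 1.03 to 1.16, and were those of Isg15, Eln (elastin), Isg20, Rsad2 and Ifit2. Isg15, an interferon-induced gene, was 168, 307 and 18.8 FPKM in the UUO kidneys, in the same order of rats as Actg2, against 6.05 to 7.28 FPKM in sham kidneys. For Myh11 they were Zfp580, Nxpe3, Abi3, Trex1 and Tspan17, at 0.44 to 0.51. The likeness rests on 12 points that share their libraries and is a description. Since Acta2 and Actg2 were chosen by their rise in UUO, genes close to them share that rise by construction, and Olr1585 and Gli1 were under 0.5 FPKM in all 6 reference kidneys.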

How the data were processed

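RNA sequencing of rat kidneys was performed by the authors on poly(A) libraries with strand marking (dUTP), read as pairs on a NovaSeq instrument. The submitters' processing notes name cutadapt 1.9, HISAT2 2.0.4 and StringTie 1.3.4d, with edgeR and DESeq2 for which no version is given. The genome build and annotation are not given in the sources used here. The authors deposited FPKM per gene in 2 tables, one for control and adenine and one for sham and UUO, with lowest values of 0 and 0.0001. Counts were not used, and the depth per sample is unknown, so precision rests on the spread between 3 rats.

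Values were taken as log2(FPKM + 0.1), kept at 0.5 FPKM or more in at least 3 of 6 samples, and fitted with limma 3.58.1 (lmFit, eBayes with a trend) in R 4.3.3, with Benjamini-Hochberg adjustment over all tested entries. Calls used an adjusted p under 0.05, alone or together with a log2 fold change of 2 or more in size. The difference between the models was set against the root of its summed squared errors, with the degrees of freedom of both fits added. Ratios of relatives were tested by exact permutation, and figures and promoter searches used Python 3.11.15. The scripts were tested on simulated data. The members and gene lists were chosen with earlier results of these data known. Named beside the members were their relatives, for the cytoskeletal and regulator lists the 4 genes with the largest called changes and known markers, and the 5 genes most like Acta2, Actg2 and Myh11. Alternatives were other scalings, pseudocounts and filters, no trend, a replicate block, 1 fit of all 12 samples and leaving out each rat. The results of 1 gene list are not reported here.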

Additional observations from a re-analysis of the deposited data

Results flagged for a closer look

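The change in 5 of the 7 tested contractile genes differed between the models by a test of the difference itself. Lmod1 also differed, in fits with no filter. The same test called a larger log2 fold change in UUO for 21.7% of all genes. The log2 fold change in UUO exceeded that in adenine by 2.20 for Tagln, 2.69 for Cnn1, 1.94 for Myl9, 1.05 for Smtn, 0.81 for Mylk and, in fits with no filter on low values, 2.91 for Lmod1. The median difference over all genes tested in both was 0.28. With median-of-ratios scaling 3 of the 7 remained past the threshold, and Cnn1 and Mylk did not. Cnn1 was also lost when some single rats were left out. The values of all 3 UUO kidneys were above those of all 3 sham kidneys for each of these 6 genes, against 60% of all tested entries. Smtn, whose size of change was smaller in UUO than in adenine, was lower in all 3 adenine kidneys than in all 3 control kidneys. No group had more than 3 rats, so single samples were not screened for outlying values.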

How the results depend on the processing

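Of 286 member log2 fold changes under the alternatives, 278 kept their direction (all but 8 of Myh11 in adenine and Smtn in UUO), as did 194 of 199 differences between the models (all but 5 of Des) and 86 of 88 ratios to relatives (all but 2 of Cnn1 to Cnn2 in UUO). The changes and differences include Acta2 and Actg2, whose larger rise in UUO was fixed by their choice. Direction and, for tested genes, the side of the adjusted p threshold were both kept by 253 of the 286 changes and 179 of the 199 differences. The ratios exclude Actg2 to Actg1 in both models and Myh11 to Myh9 in UUO, whose relatives differed several-fold between reference groups or were listed at the lowest value. Members higher at the adjusted p in adenine numbered 2 with median-of-ratios scaling and 2 with the replicate block (4 as reported), and 2 to 5 when 1 rat was left out. The replicate numbers come from different animals, so they were not used to pair the samples. Same-number correlations across genes were -0.123 to -0.0487 between control and adenine rats, and 0.050 to 0.105 between sham and UUO rats. Correlations of unlike numbers were -0.0437 to 0.113 and -0.0782 to 0.0157. With 3 rats in each group these cannot exclude something shared by number. The member lower in adenine was lost (0) at the same FPKM sum, and the count was 0 to 1 when 1 rat was left out. With a fold threshold of 1 on the log2 scale, 2 were past both thresholds in adenine. In UUO, 3 were past both thresholds with median-of-ratios scaling and 3 with quantile normalization (5 as reported). Smtn in UUO reversed to -0.21 and -0.038 under these scalings. Members with a higher log2 fold change in UUO numbered 3 with median-of-ratios scaling (5 as reported) and 4 to 6 when 1 rat was left out. The cause was not tested. Cnn1 also missed the threshold for the difference with the replicate block (adjusted p = 0.0699), with 1 fit of all samples (0.0677) and without the trend (0.0532). Unknown depth leaves the precision of genes near 0.5 FPKM, such as Lmod1, unstated.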
